A study of Mus musculus with 15 samples.

Results

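The leukocyte adhesion molecules described here were 9 genes chosen by name, of 32544 entries in the deposited table: the endothelial selectins Sele and Selp, the selectin ligand Selplg, the immunoglobulin superfamily receptors Icam1 and Vcam1, and the integrin chains Itgal, Itgam, Itgb2 and Itga4. All 9 were among the 15494 genes with enough counts to test. RNA was sequenced from 15 subcutaneous tumors grown from WEHI-164, a mouse fibrosarcoma cell line, in adult wild-type (WT) female BALB/c mice. Untreated tumors were taken on day 0, and tumors injected with poly(I:C), a double-stranded RNA analog sensed by Toll-like receptor signaling, were taken on day 1, 3, 5 or 7, with 3 tumors on each day. The labels give the treatment as 1 µg in 25 µL into the tumor each day for a planned 6 doses, whereas a supplement of the study gives a higher dose, so the dose is uncertain. The day 0 tumors received no injection, so the injection and the poly(I:C) cannot be told apart. No untreated tumor was taken on a later day, so treatment, days of tumor growth and number of doses cannot be told apart either. The study's legends name vehicle-treated tumors for this time course, but the labels give none. The study's purpose for this time course was to follow how the tumor microenvironment changed under repeated dosing.

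Leukocytes leave the blood in steps. Selectins on activated endothelium catch passing cells by binding glycosylated ligands, of which PSGL-1 (encoded by Selplg) is the main one on leukocytes, and the cells roll. Chemokines then switch integrins to their binding state. LFA-1 (Itgal with Itgb2) and Mac-1 (Itgam with Itgb2) bind ICAM-1, while Itga4 paired with Itgb1 or Itgb7 binds VCAM-1, and the cells arrest and cross the vessel wall. Sele, Icam1 and Vcam1 are textbook targets of NF-κB downstream of TNF and IL-1, and VCAM-1 is also carried by some macrophages and stromal cells. In tumors the same receptors serve the entry of leukocytes from the circulation.

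Sele and Selp lie in the selectin cluster, and Itgal and Itgam lie on the same chromosome. In GENCODE release M21 on GRCm38, Sele spans chr1:164048234-164057677, Selp chr1:164115264-164150026, Selplg chr5:113818536-113832644, Icam1 chr9:21015985-21028817 and Vcam1 chr3:116109949-116129688. Among the integrin chains, Itgal spans chr7:127296260-127335138, Itgam chr7:128062640-128118491, Itgb2 chr10:77530252-77565708 and Itga4 chr2:79255426-79333123. Selplg and Vcam1 are on the minus strand and the others on the plus strand, and all are protein coding.

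The RefSeq promoter table (GRCm38.p6) held a window, from 250 bases before to 50 bases after the transcription start, for 5 of the 9 genes: Sele, Selp, Icam1, Itgam and Itga4. Selplg, Vcam1, Itgal and Itgb2 had no window in it. The 250 bases before the start are printed for Icam1 and Sele, whose start regions hold the same NF-κB motif, and for Itgam, the most abundant of the α chains. Capitals mark the NF-κB form GGANNTTCC (in Sele and Icam1) and the ETS core AGGAAG (in Sele and Itgam), each searched on both strands. Sequences run 5′ to 3′ on the plus strand and end just before the RefSeq start. In GENCODE M21 these 3 stretches lie in no annotated gene on either strand.
Sele (chr1:164047984-164048233): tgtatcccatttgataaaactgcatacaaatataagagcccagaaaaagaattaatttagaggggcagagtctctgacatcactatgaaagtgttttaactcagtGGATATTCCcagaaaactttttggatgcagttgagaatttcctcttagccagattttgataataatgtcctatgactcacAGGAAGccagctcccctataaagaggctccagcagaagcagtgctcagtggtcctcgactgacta
Icam1 (chr9:21015690-21015939): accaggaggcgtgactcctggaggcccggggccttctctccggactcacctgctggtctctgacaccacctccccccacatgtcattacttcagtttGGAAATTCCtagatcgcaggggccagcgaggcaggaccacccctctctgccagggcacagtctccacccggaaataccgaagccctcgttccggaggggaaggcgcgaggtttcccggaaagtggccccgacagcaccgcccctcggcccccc
Itgam (chr7:128062390-128062639): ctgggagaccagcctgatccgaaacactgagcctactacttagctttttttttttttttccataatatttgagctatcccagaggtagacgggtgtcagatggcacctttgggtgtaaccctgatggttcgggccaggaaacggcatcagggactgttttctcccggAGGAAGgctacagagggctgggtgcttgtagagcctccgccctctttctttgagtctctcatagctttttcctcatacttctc

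Counting from the start site, the motif began at -145 in Sele as GGATATTCC and at -153 in Icam1 as GGAAATTCC. GGANNTTCC was found in 4.26% of 32851 RefSeq windows of the same length. In Sele it overlapped a match to a looser NF-κB form, GGGNNNNNCC, which was present in 50.8% of windows, and a match to the STAT motif TTCNNNGAA at -140. The looser form was also matched in Selp at -15, in Icam1 at -120 and in Itgam at -140 and -139. TTCNNNGAA occurred in 8.3% of windows and was also found in Icam1, at -42. The Itgam window held AGGAAG, bound by ETS factors such as PU.1, at -83 and, on the other strand, at 32 after the start, and Selp held it at -64 and 20. AGGAAG was in 35.4% of windows. In Itga4 the motifs searched gave a single match, the GC box GGGCGG at -114, which 35.7% of windows held. GGGCGG was also matched in Icam1 at -17 and 24 and in Itgam at -47. The TATA box TATAAA, in 13.6% of windows, was matched in Sele at -49 and in Icam1 at 14. These matches describe letters, and binding was not measured.

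Each tumor had between 23.7 and 31.9 mega-counts in all. Levels are given as CPM, the count per mega-count of library after TMM normalization, and 3 counts, the most that an observed 0 allows, equal 0.094 to 0.127 CPM. One tumor, day 3 replicate 1, stood apart from the other 14. On the first principal component, with 57.4% of the variance, it lay at 144 and the others between -77 and 45.1. Its 10 skeletal muscle markers summed to 3790 CPM against 3.93 to 199 CPM in the other tumors, its 8 adipocyte markers to 273 against 3.89 to 59.5 CPM, and its 8 fibroblast and matrix markers to 26500 against 2170 to 8180 CPM. Values with it left out stand beside the day 3 results, and the part of this tissue in the results was not tested. Fibroblast and matrix markers were counted in all 15 tumors for all 8 genes, but they are not particular to the cell line and so do not check the fibrosarcoma label.

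**Figure D1:**
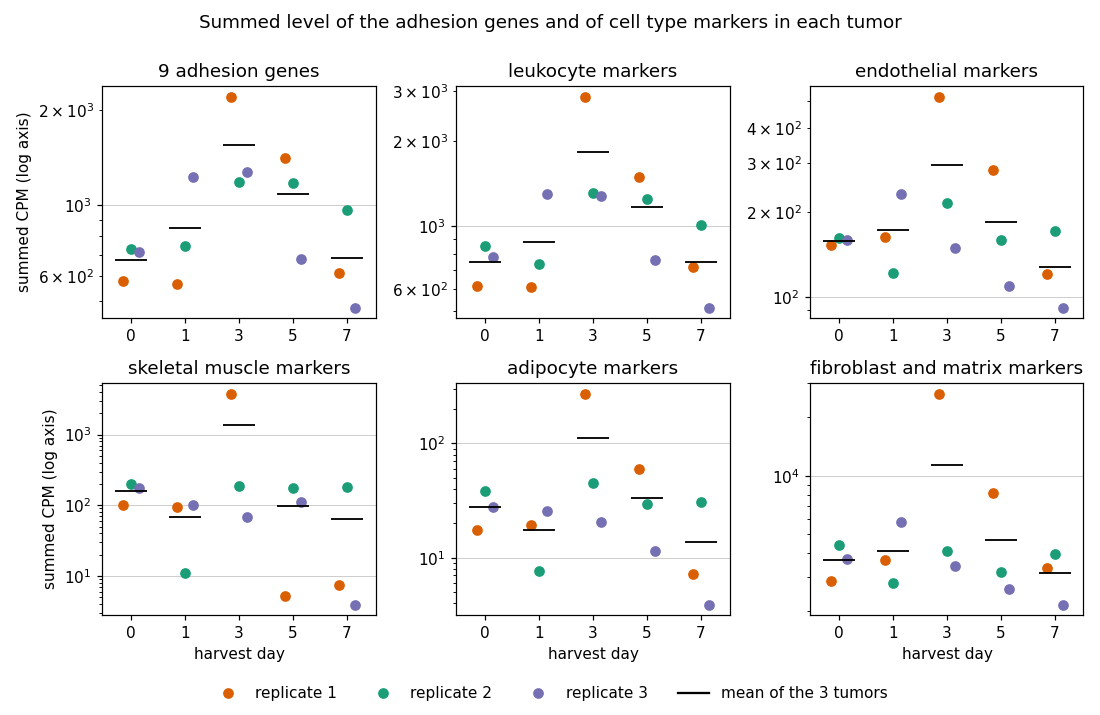
Summed CPM (log axis) of the 9 adhesion genes and of 5 marker lists in each tumor by harvest day, with colors for replicate numbers and a line for the mean of 3 tumors. Day 3 replicate 1 is the highest tumor in every panel, at 2200 CPM for the adhesion genes and 3790 CPM for the muscle markers.

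The 9 genes differed widely in abundance. To compare genes, CPM were divided by the length of the merged exons in kb. In untreated tumors Itgam (46.4 ± 3.12 CPM per kb) and Itgb2 (45.3 ± 9.91) were the most abundant and their tumors overlapped. Vcam1 followed at 17 ± 0.819, then Selplg at 8.62 ± 1.82, Itgal at 8.18 ± 1.98 and Icam1 at 6.02 ± 1.13 CPM per kb, and these last 3 overlapped from each to the next. Itga4 was lower, at 2.18 ± 0.26 CPM per kb, with a long merged exon set of 14 kb that lowers this scale. The endothelial selectins Sele (0.51 ± 0.227) and Selp (0.429 ± 0.31) were the lowest and overlapped each other (SD, n = 3 throughout). Counts behind the selectins were small, 8 to 110 reads per tumor for Sele and 8 to 296 for Selp, and only 15.4% and 18.7% of tested genes had a lower mean. By contrast 96.6% of tested genes lay below Itgam, 94.2% below Vcam1 and 93.9% below Itgb2. On day 3 Itgb2 was first at 124 ± 54.4 and Itgam second at 91 ± 21.3 CPM per kb, again overlapping.

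**Figure D2:**
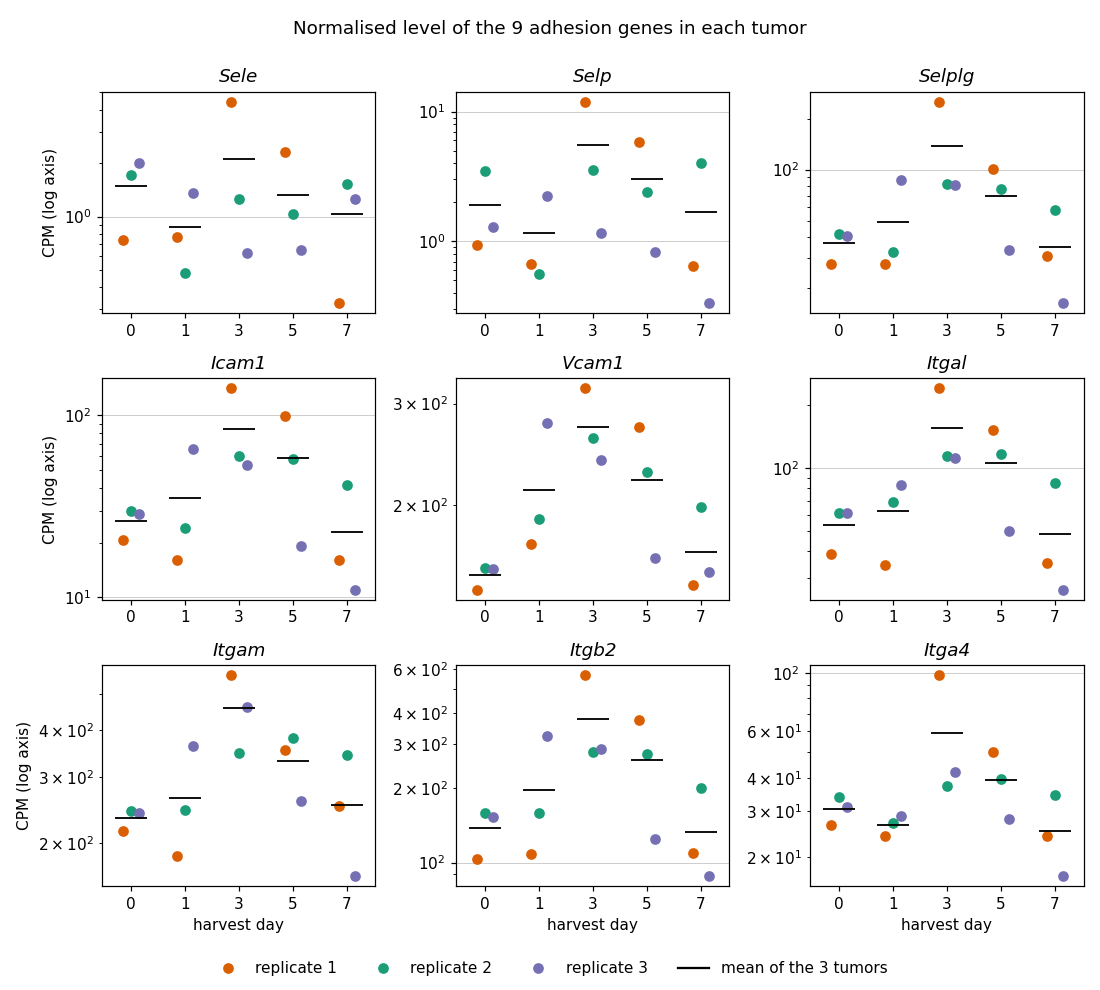
CPM (log axis, scaled per panel) of each adhesion gene in each of the 15 tumors by harvest day, with colors for replicate numbers and a line for the mean of 3 tumors. All day 3 tumors lie above all day 0 tumors in 7 panels, while in the Sele and Selp panels the days overlap.

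On day 3, 7 of the 9 adhesion genes lay above their untreated range in every tumor, and the size of the difference depended on day 3 replicate 1. Of the 9 genes, 9 had a higher fitted level in day 3 tumors than in untreated ones. Their median log2 fold change was 1.46 against -0.02 over all genes tested. Without day 3 replicate 1 it was 0.80, with 8 of 9 higher, beside a median of 0.69 on day 5 in the same fit. The 7 genes with all day 3 tumors above all day 0 tumors compare with 19.4% of all genes. The same 7 (Selplg, Icam1, Vcam1, Itgal, Itgam, Itgb2 and Itga4) had an unadjusted p under 0.05 with a higher level, against 18.3% of all genes. No gene of the 15494 passed an adjusted p of 0.05 in edgeR's quasi-likelihood test on day 3 (0% called), so none of these differences passed the test. DESeq2, run as an alternative, gave 5 of the 9 an adjusted p under 0.05 (Selplg, Vcam1, Itgal, Itgam and Itgb2), all higher, where it called 9.43% of the genes given an adjusted p as higher. Without day 3 replicate 1, DESeq2 called 0 of the 9 (it gave Sele no adjusted p), and edgeR gave 2 of the 9 an unadjusted p under 0.05, Vcam1 and Itgam, beside 6.52% of all genes. Fewer cells of a type and less RNA per cell cannot be told apart in bulk tumors. All comparisons with day 0 share the same 3 untreated tumors.

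Selplg encodes PSGL-1, the ligand that leukocytes present to P- and E-selectin. Its levels were 27.9, 41.8 and 40.8 CPM on day 0, 27.6, 32.6 and 87 CPM on day 1, and 251, 82.5 and 80.9 CPM on day 3. On day 5 they were 101, 76.5 and 33.5 CPM and on day 7 30.9, 57.6 and 16.3 CPM. Day 3 did not overlap with day 0, and within day 3 the first tumor was far above the others. The log2 fold change on day 3 was 1.91 ± 0.615 (SE), with an edgeR adjusted p = 0.115. It was 1.15 ± 0.576 without day 3 replicate 1.

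Sele encodes E-selectin, made by activated endothelium, and Selp encodes P-selectin, stored in endothelium and platelets. Sele stood at 0.741, 1.71 and 2 CPM on day 0, at 0.77, 0.478 and 1.36 CPM on day 1, and at 4.43, 1.25 and 0.622 CPM on day 3. Its levels were 2.31, 1.03 and 0.646 CPM on day 5 and 0.325, 1.52 and 1.25 CPM on day 7. The days overlapped, and 1 tumor of day 3 was high. The log2 fold change on day 3 was 0.50 ± 0.751 (edgeR adjusted p = 0.635) with all tumors, and its sign turned, to -0.65 ± 0.722, without day 3 replicate 1. Selp was more variable, at 0.944, 3.46 and 1.28 CPM on day 0, 0.669, 0.558 and 2.24 CPM on day 1, and 11.9, 3.53 and 1.17 CPM on day 3. It stood at 5.85, 2.38 and 0.826 CPM on day 5 and at 0.652, 4.03 and 0.334 CPM on day 7. Again the days overlapped, with a log2 fold change of 1.54 ± 1.05 on day 3 (edgeR adjusted p = 0.301) and 0.32 ± 1.06 without that tumor. Neither selectin passed a test on any day, at counts that were low and spread widely between the tumors of a day.

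Icam1 encodes the endothelial and leukocyte receptor for LFA-1 and Mac-1. Its levels were 20.6, 29.7 and 28.5 CPM on day 0, 16, 24.2 and 65.5 CPM on day 1, and 141, 59.5 and 53.2 CPM on day 3. On day 5 they were 98.8, 57.2 and 19.3 CPM, and on day 7 16, 41.5 and 11 CPM. All 3 day 3 tumors were above day 0, while day 5 held 2 tumors above and 1 below the day 0 range. The log2 fold change on day 3 was 1.69 ± 0.679 (edgeR adjusted p = 0.137), and 1.11 ± 0.698 without day 3 replicate 1. Sele did not show this separation of the day 3 tumors, but its counts were far lower, and a difference between Sele and Icam1 was not tested.

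Vcam1 encodes the receptor for the α4 integrins. It varied little among untreated tumors, at 142, 155 and 155 CPM. It stood at 171, 189 and 278 CPM on day 1, at 319, 261 and 240 CPM on day 3, at 273, 228 and 162 CPM on day 5, and at 145, 198 and 153 CPM on day 7. Every tumor of days 1, 3 and 5 was above every day 0 tumor, while day 7 overlapped. The log2 fold changes were 0.49 ± 0.214 at day 1, 0.86 ± 0.215 at day 3 and 0.55 ± 0.215 at day 5, each with an unadjusted p under 0.05 (at day 1 not without day 1 replicate 3, where it was 0.26, nor without any 1 of the untreated tumors), and with edgeR adjusted p-values of 1, 0.115 and 0.859. Day 3 changed little without its first tumor, to 0.74 ± 0.231. Vcam1 had the narrowest range of the 9, with 2.24-fold between the lowest and the highest tumor, against 35.6-fold for Selp.

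Itgal encodes the α chain of LFA-1, found on most leukocytes. Its levels were 38.7, 61.3 and 61.2 CPM on day 0, 34.6, 69.2 and 83.2 CPM on day 1, and 241, 114 and 112 CPM on day 3. They were 152, 117 and 50 CPM on day 5 and 35.3, 84.5 and 26.3 CPM on day 7. Day 3 did not overlap with day 0, and the log2 fold change was 1.53 ± 0.518 (edgeR adjusted p = 0.115), or 1.08 ± 0.525 without day 3 replicate 1.

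Itgam encodes CD11b, the α chain of Mac-1, carried by monocytes, macrophages and neutrophils. It was counted at 215, 244 and 240 CPM on day 0, at 184, 245 and 362 CPM on day 1, and at 562, 349 and 462 CPM on day 3. Levels were 353, 380 and 259 CPM on day 5 and 251, 344 and 163 CPM on day 7. Days 3 and 5 did not overlap with day 0. The log2 fold change on day 3 was 0.97 ± 0.29 (edgeR adjusted p = 0.115) and 0.80 ± 0.309 without the first tumor. Of its known carriers, macrophage markers (9 genes) summed to 1590 to 1710 CPM on day 0 and 2530 to 6610 CPM on day 3. Neutrophil markers (8 genes) summed to 61.7 to 101 CPM and 98.1 to 239 CPM on those days. Among these, Csf3r averaged 23.1 ± 3.92 CPM on day 0 and 99 ± 65 CPM on day 3, while Mmp9 averaged 41.7 ± 26.7 and 34 ± 9.13 CPM (SD, n = 3). Of the 7 tested, 6 were higher on day 3, and 5 without day 3 replicate 1. An unadjusted p under 0.05 with a higher level was found for 1 of the 7, beside 18.3% of all genes. Without that tumor it was found for 0, beside 6.52% of all genes. Ly6g, at no more than 5 counts in any tumor, had too few counts to test.

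Itgb2 encodes CD18, the β chain that Itgal and Itgam need to reach the surface. Its levels were 104, 159 and 153 CPM on day 0, 108, 158 and 323 CPM on day 1, and 571, 279 and 287 CPM on day 3. On day 5 they were 376, 274 and 125 CPM and on day 7 109, 200 and 88.2 CPM. Day 3 lay wholly above day 0, with a log2 fold change of 1.45 ± 0.489 (edgeR adjusted p = 0.115), and of 1.04 ± 0.5 without day 3 replicate 1.

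Itga4 encodes the α4 chain of the VCAM-1 receptors. Its levels were 26.6, 33.8 and 31 CPM on day 0, 24.1, 26.9 and 28.7 CPM on day 1, and 98.3, 37.1 and 42.3 CPM on day 3. They were 50.2, 39.8 and 27.9 CPM on day 5 and 24.2, 34.6 and 17 CPM on day 7. Day 3 did not overlap with day 0, but its first tumor was far above the others. The log2 fold change was 0.96 ± 0.351 (edgeR adjusted p = 0.122), and 0.38 ± 0.27 without that tumor. Its partner Itgb1, a broadly expressed β chain, went the other way. Itgb1 averaged 905 ± 32 CPM in untreated and 668 ± 56.7 CPM in day 3 tumors (SD, n = 3). Its log2 fold change was -0.44 ± 0.124 (SE, edgeR adjusted p = 0.115). The other partner Itgb7, a leukocyte β chain, was far above Itga4 per length in untreated tumors, at 50.3 ± 1.69 against 2.18 ± 0.26 CPM per kb, and its day 3 tumors were above day 0, with a log2 fold change of 0.68 ± 0.303 (edgeR adjusted p = 0.16), or 0.85 ± 0.322 without day 3 replicate 1.

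**Figure D3:**
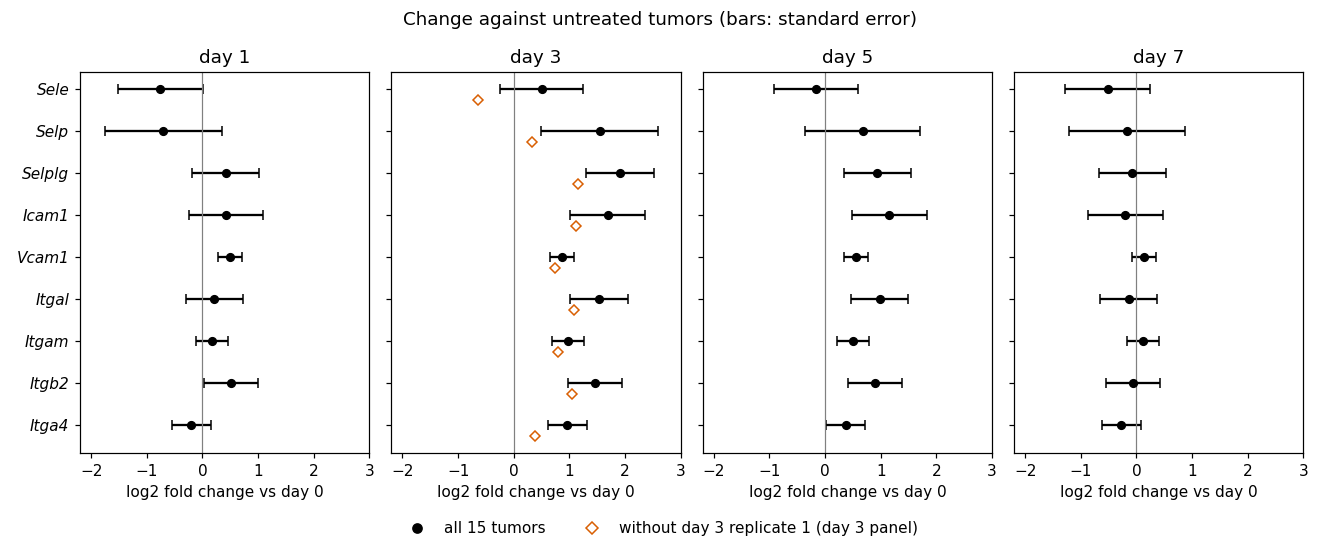
Log2 fold change of each adhesion gene on each treated day against day 0, as edgeR fitted it over 15 tumors, with bars for the standard error. Open diamonds in the day 3 panel are the values without day 3 replicate 1, all of which lie to the left, with Sele at -0.65.

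On day 1, 6 of the 9 genes had a higher fitted level than on day 0, but Vcam1 was the only member whose groups did not overlap (5.76% of all genes) or whose higher level had an unadjusted p under 0.05 (2.18% of all genes). Selplg, Icam1, Itgal, Itgam and Itgb2 had log2 fold changes of 0.42, 0.43, 0.21, 0.18 and 0.51, which rested on day 1 replicate 3. Without that tumor they were -0.29, -0.38, -0.05, -0.12 and -0.05. Adjusted calls on day 1 numbered 0 in all genes (0%), with edgeR and, among the members, with DESeq2.

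On day 5, 8 of the 9 had a higher fitted level than on day 0, Sele being the exception at -0.16 ± 0.755. Vcam1 and Itgam had non-overlapping groups (6.89% of all genes), and Vcam1 alone had an unadjusted p under 0.05 with a higher level (1.41% of all genes). The median log2 fold change over the members was 0.67. Icam1 stood at 1.15 ± 0.671, Itgal at 0.98 ± 0.512 and Selplg at 0.93 ± 0.601, which became 0.54, 0.63 and 0.58 without day 5 replicate 1. None of the 9, and 0% of all genes, passed the adjusted threshold in edgeR, and none of the 9 did in DESeq2.

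By day 7, 2 of the 9 genes, Vcam1 and Itgam, were fitted above day 0 and 7 below, with a median of -0.14. Every member overlapped with day 0 and none had an unadjusted p under 0.05, where 5.02% of all genes had higher non-overlapping groups and 1.05% a higher level with an unadjusted p under 0.05. The member farthest below day 0 was Sele, at -0.52 ± 0.763. With edgeR 0% of all genes were called on day 7, and DESeq2 called none of the 9. With 3 tumors a group and standard errors from 0.214 to 1.04, these values do not show that levels returned to those of day 0.

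Set against day 3, day 7 was lower for 9 of 9 genes, with a median log2 fold change of -1.52. Leaving out day 3 replicate 1, it was lower for 8 of 9, with a median of -0.67 and Sele at 0.15. The tumors of the same 7 genes did not overlap (18.4% of all genes were lower in this way) and their unadjusted p-values were under 0.05 (22.6%). Log2 fold changes among the 7 ran from -1.98 ± 0.617 for Selplg to -0.72 ± 0.215 for Vcam1. In edgeR the smallest adjusted p was 0.0832 and 0% of genes were called, whereas DESeq2 called these 7 members, where it called 15% of the genes given an adjusted p as lower. Without day 3 replicate 1 the unadjusted p stayed under 0.05 for 3 members, Vcam1, Itgal and Itga4, beside 8.48% of all genes, and DESeq2 called 0 of the 9 (it gave Sele and Selp no adjusted p). Tested jointly over the 4 treated days, 6 of the 9 had an unadjusted p under 0.05 (Selplg, Vcam1, Itgal, Itgam, Itga4 and Itgb2), where 16.2% of all genes did. None passed adjustment in edgeR (0% of all genes), and DESeq2 called 4, Selplg, Vcam1, Itgal and Itga4. The share of all genes that DESeq2 called jointly was not computed, so this count does not set the members apart.

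The tumors of a day kept nearly the same order from gene to gene. Replicate 1 of day 3 was the highest of its day for 9 of 9 members, as were replicate 3 of day 1 and replicate 2 of day 7, and replicate 1 of day 5 was the highest for 8. At the low end, replicate 1 of day 0 and replicate 3 of day 5 were lowest of their day for all 9. Leukocyte markers (8 genes, none of them a member) followed the same tumors, with 1300 CPM summed in day 1 replicate 3 against 609 and 736 CPM in the others of that day, and 1010 CPM in day 7 replicate 2 against 715 and 516 CPM. All 8 leukocyte markers had a higher fitted level on day 3 against untreated tumors (median 1.5 on the log2 scale, and 1.07 without day 3 replicate 1). The part of leukocyte, endothelial or fibroblast content in the members' values was not tested.

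Ratios within a tumor describe the members beside a pan-leukocyte gene, Ptprc (CD45), whose own log2 level spanned 3.42 over the 15 tumors. Itgal spanned 3.19 on the log2 scale, but its log2 ratio to Ptprc spanned 0.84 and averaged -1.46 ± 0.09 on day 0 and -1.53 ± 0.06 on day 3 (SD, n = 3). Selplg spanned 3.94 and its ratio to Ptprc 0.75, and Itgb2 spanned 2.69 and its ratio 0.76. These 3 genes kept nearly the same ratio to CD45 while their levels varied. Itgam and Itga4 did not. The log2 ratio of Itgam to Ptprc spanned 1.63 against 1.78 for Itgam itself, and averaged 0.68 ± 0.28 in untreated tumors, 0.10 ± 0.40 at day 3 and 0.95 ± 0.37 at day 7. The day 3 mean minus the day 0 mean was -0.59, and -0.38 without day 3 replicate 1. Days 0 and 3 overlapped, with the lowest day 0 tumor at 0.453 and the highest day 3 tumor at 0.460. The log2 ratio of Itga4 to Ptprc was -2.25 ± 0.20 on day 0 and -2.97 ± 0.12 on day 3, and all 3 day 3 tumors lay below all 3 day 0 tumors. Ptprc itself was at most 178 CPM on day 0 and at least 313 CPM on day 3. The share of all genes whose ratio to Ptprc separated in this way was not computed, so the separation does not set Itga4 apart. The ratios share the libraries and, in part, the denominator, and they were not tested.

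**Figure D4:**
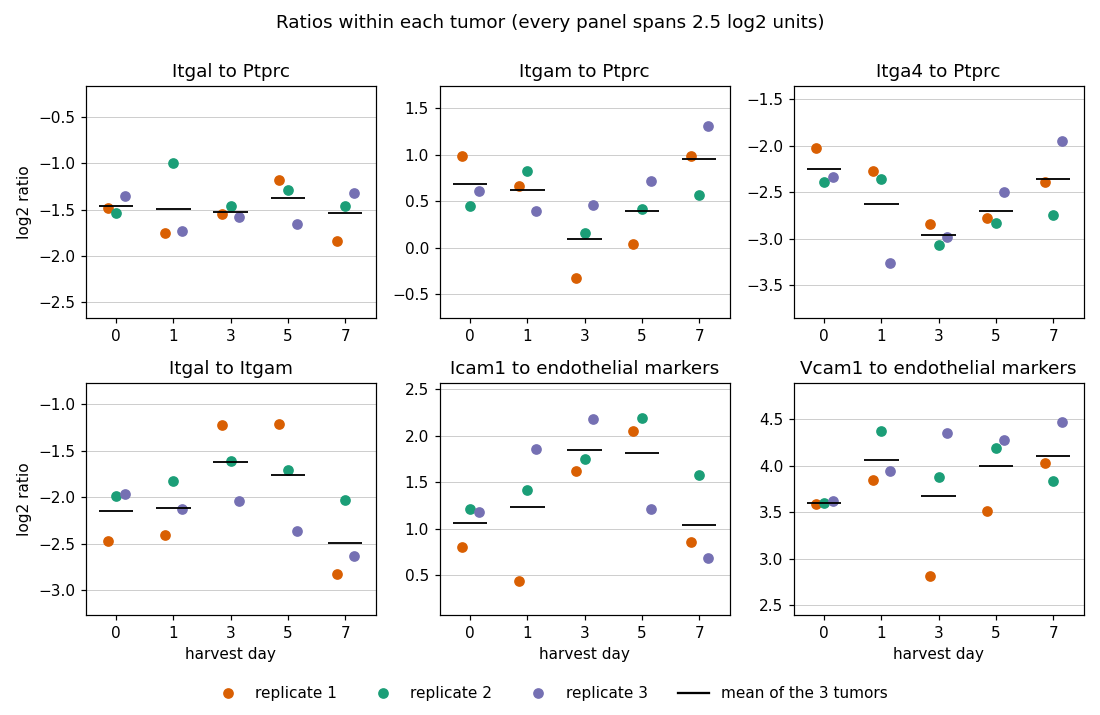
Log2 ratio of the first named gene to the second, or to the mean of 10 endothelial markers, in each tumor by harvest day, with colors for replicate numbers and a line for the mean of 3 tumors. The means in the Itgal to Ptprc panel are nearly flat, Itga4 to Ptprc is lower on day 3 (-2.97) than on day 0 (-2.25), and the panels have axes of equal span.

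Itgal and Itgam share the β chain Itgb2. The log2 ratio of Itgal to Itgam averaged -2.14 ± 0.28 in untreated tumors, -1.63 ± 0.41 at day 3 and -2.49 ± 0.42 at day 7, and days overlapped. The day 3 mean minus the day 0 mean was 0.52, or 0.32 without day 3 replicate 1. Among the 4 α chains that pair with Itgb2, per kb of exon, Itgam made up 73.8% ± 3.66 in untreated tumors, 67.2% ± 7.76 at day 3 and 80% ± 2.92 at day 7 (SD, n = 3). Itgal made up 12.8% ± 1.85, 16.7% ± 2.79 and 11.1% ± 2.93 on those days, and Itgax (CD11c, of dendritic cells and some macrophages) 13.3% ± 2.06, 15.7% ± 4.87 and 8.83% ± 0.487. Itgad stayed under 1% in every tumor. The lowest share of Itgam on day 3, 58.7%, was in replicate 1, against 69% and 73.8% in the others. Summed per kb, the 4 α chains were between 0.924 and 1.71 times Itgb2 in every tumor.

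For the receptors of the vessel wall, the levels of 10 endothelial markers were set beside the members. These markers summed to 152 to 162 CPM on day 0 and to 517, 216 and 150 CPM on day 3, so the days overlapped. Their median log2 fold change was 0.93, and 0.29 without day 3 replicate 1. An unadjusted p under 0.05 with a higher level was found for 4 of the 10, beside 18.3% of all genes. Without that tumor it was found for 0 of the 10, beside 6.52% of all genes. The log2 ratio of Icam1 to the mean endothelial level was 1.07 ± 0.23 on day 0 and 1.85 ± 0.29 on day 3, and every day 3 tumor lay above every day 0 tumor. The share of all genes with such a separation was not computed, so it does not set Icam1 apart. For Vcam1 the ratio was 3.60 ± 0.02 on day 0 and 3.68 ± 0.79 on day 3, where the first tumor was at 2.81 and the others at 3.88 and 4.35. Icam1 and Vcam1 are not confined to endothelium, so their ratios are not levels per endothelial cell. The part of leukocytes in them was not tested. Sele and Selp had ratios of -3.10 ± 0.67 and -2.87 ± 0.89 on day 0 and -3.72 ± 0.37 and -2.49 ± 0.68 on day 3, which overlapped. Platelet markers (8 genes), another source of Selp, summed to 20.6 to 45.6 CPM on day 0 and 24.2 to 47.3 CPM on day 3, with Gp9 at 3 counts or fewer in every tumor.

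The other genes of the adhesion cascade were taken from lists by role, and each was compared on day 3 with day 0, where 18.3% of all genes were higher and 11.7% lower with an unadjusted p under 0.05. None passed the adjusted threshold in edgeR. Among genes for the other selectin, selectin ligands and the enzymes that build them, 10 of 14 tested were higher (median 0.21), with 5 higher and 1 lower at an unadjusted p under 0.05. The median was 0.10, with 1 higher and 0 lower, once day 3 replicate 1 was left out. The enzyme Gcnt1, which branches the O-glycans that selectins bind, had a log2 fold change of 0.57 ± 0.165, Spn (CD43, a leukocyte sialomucin) 1.12 ± 0.357, and Fut7, the fucosyltransferase that completes sialyl Lewis x, 1.80 ± 0.731, with edgeR adjusted p-values of 0.115, 0.115 and 0.139. They were 0.37, 0.75 and 1.10 without that tumor. Among immunoglobulin and junction receptors, 11 of 13 were higher (median 0.65), but 8 of 13 and a median of 0.12 without day 3 replicate 1. Of these, 3 had an unadjusted p under 0.05. Those were Cd47, the "don't eat me" ligand that also binds integrins, at 0.48 ± 0.154, Cd226, a receptor of T and NK cells, at 2.35 ± 1.04, and Pecam1, the junctional CD31, at 0.98 ± 0.451, with edgeR adjusted p-values of 0.115, 0.158 and 0.166. Without that tumor they were 0.39, 1.33 and 0.40, and 1 of them, Cd47, kept an unadjusted p under 0.05.

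Of 15 other integrin chains, 9 were higher on day 3 (median 0.35), with 5 higher and 3 lower at an unadjusted p under 0.05. The lower ones were Itgb1, Itgav and Itga6, chains that tumor and stromal cells use to bind matrix, at -0.44 ± 0.124, -0.34 ± 0.133 and -0.52 ± 0.21 (edgeR adjusted p = 0.115, 0.133 and 0.139). Without day 3 replicate 1 they were -0.37, -0.24 and -0.26, the list had a median of 0.12, and 1 gene was higher and 1, Itgb1, lower at an unadjusted p under 0.05. Itgax was at 1.45 ± 0.502 and Itgad at 3.98 ± 1.29, the latter on 3 to 8 counts per day 0 tumor and with overlapping days. Without that tumor they were at 0.77 and 2.24. Among the 5 role lists, integrin activation had the most genes with an unadjusted p under 0.05. There, 15 of 16 were higher (median 1.19, or 0.68 without day 3 replicate 1), with 10 higher and 1 lower at an unadjusted p under 0.05, and 6 higher and 1 lower without that tumor. Fyb (ADAP), an adaptor between the T cell receptor and integrins, was at 1.56 ± 0.41, and Dock2, the leukocyte Rac exchange factor, at 1.55 ± 0.419. The kindlins differed in direction, with Fermt2, the kindlin of non-blood cells, at -0.52 ± 0.122 and Fermt3, the kindlin of blood cells, at 1.56 ± 0.458, all 4 with an edgeR adjusted p of 0.115. Fyb, Dock2, Fermt2 and Fermt3 were at 1.16, 1.05, -0.46 and 1.07 without day 3 replicate 1. All 8 leukocyte markers were also higher on day 3 with an unadjusted p under 0.05 (6 without that tumor). The part of leukocyte content in the integrin activation list was not tested.

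Among 17 inducers and NF-κB feedback genes, 13 were higher on day 3 (median 0.36), with 6 higher and 1 lower at an unadjusted p under 0.05, and a median of 0.28 with 1 higher and 0 lower without day 3 replicate 1. Tnfaip3 (A20), a feedback inhibitor that NF-κB induces, was at 0.88 ± 0.288, Ltb, which encodes lymphotoxin β, at 2.15 ± 0.727, and Birc3 (cIAP2) at 0.67 ± 0.264, with edgeR adjusted p-values of 0.115, 0.115 and 0.133. Without that tumor they were 0.74, 1.24 and 0.30. Other cell type lists moved on the same day. T cell markers were higher for 11 of 11 genes (median 2.03), B cell markers for 7 of 7 tested (1.75), macrophage markers for 8 of 9 (1.48), neutrophil markers for 6 of 7 (1.12) and platelet markers for 4 of 5 (0.34). With day 3 replicate 1 left out, these medians were 1.29, 0.96, 1.00, 0.57 and 0.36, with 11 of 11, 5 of 7, 7 of 9, 5 of 7 and 4 of 5 higher. Muscle, adipocyte and fibroblast markers had medians of 3.02, 2.06 and 1.75 with all tumors, and of -0.25, 0.33 and 0.16 without day 3 replicate 1.

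Finally, the genes whose pattern over the 15 tumors lay nearest each member were found from the root mean square (RMS) difference of centered log2 CPM over 15493 other genes, a description that rests on shared libraries. For Itgb2 they were Il2rg, the common γ chain of cytokine receptors (RMS 0.112, against 0.771 for the spread of Itgb2 itself), and Csf2ra, a GM-CSF receptor chain (0.128). For Selplg they were Zfp467 (0.122) and the leukocyte antigen Cd48 (0.136), and for Itgal Cybb, the phagocyte oxidase subunit (0.168), and Il10ra, an IL-10 receptor chain (0.178). Itga4 lay nearest Csf1r, the macrophage growth factor receptor (0.146), and Naip6 (0.151), and Itgam nearest Nfkbiz (0.126) and Lacc1 (0.131). Icam1 lay nearest Sema4a (0.167) and Gpr132 (0.178), and Vcam1 nearest the osteoclast and lysosome genes Tcirg1 (0.093) and Clcn7 (0.099). The selectins had the largest RMS to their nearest genes, with Zfp618 (0.389) and Avpr1a (0.405) for Sele and Rnase6 (0.412) and Cxcl12 (0.418) for Selp. Their own spreads were 0.87 for Sele and 1.328 for Selp, against 0.379 for Vcam1. The RMS values were not scaled to these spreads, so they do not rank the members by closeness. Without day 3 replicate 1 the nearest gene was the same for Sele (Zfp618), Selplg (Zfp467) and Itga4 (Csf1r), and another for the remaining 6.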

How the data were processed

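Poly(A) RNA from 15 tumors was sequenced as single-end reads. The authors quantified transcripts with kallisto (GRCm38 per the submitters' processing notes), summed them to genes and deposited estimated counts as whole numbers, with 1 column per tumor. The strandedness of counting was not given in the sources used here. The estimated counts were used as deposited, so reads shared by similar genes were divided by the authors' tool. An entry whose gene name had become a date (at most 0.0268% of counts) was left out. Of 32544 entries, 9156 had no count, and 31401 names matched a mouse symbol. Harvest day and replicate came from the labels.

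Genes with CPM above 0.366 in at least 3 tumors (the study's filter) were tested, 15494 in all, with edgeR 4.0.16 in R 4.3.3: TMM scaling, a quasi-likelihood fit of all 15 tumors by day, two-sided F tests and Benjamini-Hochberg adjustment over all genes tested, with a threshold of 0.05. Standard errors were the log2 fold change divided by the square root of F. Log2 CPM used a prior count of 2. Alternatives were DESeq2 1.42.0 and those in the closing section. The scripts were tested on simulated data. Replicates of a day differed beyond counting noise (chi-square per degree of freedom from 9.56 to 284). The labels do not tie tumors to mice, but the study counts 3 mice per group for this time course, so the 3 tumors of a day were taken as separate animals. Limits of detection cover counting error only, whereas the SDs and standard errors include the spread between tumors.

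The 9 genes and the gene lists were chosen with earlier results of these data known. The genes named besides the 9 were, by rule, the 3 with the smallest day 3 p in each of 5 role lists, the 2 nearest patterns for each member, and Itgb1, Itgb7, Ptprc and Pecam1. Ly6g, Csf3r, Mmp9, Gp9, Fermt3, Itgav and Itga6 were named after their values were seen. Esam and Cdh5, and Emcn, stood in the endothelial list and in a role list. Lengths and positions are from GENCODE M21. Glycam1, Chst4, Icam4 and Madcam1 had too few counts to test, and Cd99 was not analysed here.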

Additional observations from a re-analysis of the deposited data

How the results depend on the processing

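Counts of members past a threshold were unchanged with RLE scaling or no filter, and the ratios kept their direction with a prior count of 0.5. With DESeq2 the adjusted counts were 5 on day 3, 7 for day 7 against day 3 and 4 for the joint test, in place of 0 in each, and the unadjusted count on day 5 was 2 in place of 1. Fitting only the days compared, day 5 had 5. Same-numbered tumors did not deviate together (correlations from -0.619 to 0.511, 9 of 30 above 0.1), so the numbers do not pair them. A fit with the replicate number as a block gave 0 unadjusted members on day 1 in place of 1, 6 on day 3 and 7 for day 7 against day 3, and 0 adjusted throughout. Chosen after seeing the data, DESeq2 without day 3 replicate 1 gave unadjusted counts of 2 on day 3, 4 for day 7 against day 3 and 2 jointly, with Sele at -0.66 and 0.15. The causes were not tested. A share of all genes is given above for adjusted DESeq2 calls on day 3 and for day 7 against day 3. It is also given for unadjusted edgeR counts of these comparisons without day 3 replicate 1. Other counts of alternative fits in this section have no such share, so they do not set the members apart from all genes.

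Leaving out 1 tumor in turn, unadjusted counts ran from 0 to 1 on day 1, 2 to 7 on day 3 (2 without day 3 replicate 1), 0 to 4 on day 5 (4 without day 5 replicate 3, and 0 without replicate 1 of day 0, or replicate 1 or 2 of day 5), 3 to 8 for day 7 against day 3 and 1 to 7 jointly (3 and 1 without day 3 replicate 1). Adjusted counts for day 7 against day 3 ran from 0 to 4 (4 without day 3 replicate 3: Selplg, Vcam1, Itgal and Itga4). Log2 fold changes that changed sign ran as follows. On day 1 Icam1 ran from -0.38 to 0.77, Itgal from -0.047 to 0.50, Itgam from -0.12 to 0.38, Itgb2 from -0.051 to 0.80, Selplg from -0.29 to 0.70 and Selp from -1.62 to 0.062. Sele ran from -0.65 to 0.94 on day 3, from -0.82 to 0.17 on day 5 and from -1.45 to 0.15 for day 7 against day 3, and Selp from -0.24 to 1.44 on day 5. On day 7 Icam1 ran from -0.96 to 0.13, Itgal from -0.80 to 0.16, Itgam from -0.17 to 0.35, Itgb2 from -0.49 to 0.16, Selp from -1.93 to 0.59, Selplg from -0.64 to 0.27 and Vcam1 from -0.017 to 0.22. The lowest counts among the members were 8 in a tumor, for Sele and Selp.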
